A study of Homo sapiens with 9 samples.

Results

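The genes described here encode proteases that act at or outside the cell surface: the ADAM and ADAMTS metalloproteases, the plasminogen activators PLAU and PLAT with the receptor PLAUR, the surface serine peptidases FAP and DPP4, the secreted HTRA proteases, the proprotein convertases that activate many of these enzymes, and the heparan sulfate cleaving enzyme HPSE. They are 35 genes listed by name, with earlier results of these data known. A gene was read where a probe set is annotated to it alone, and where it has several, the one that is brightest on average across the 9 arrays stands for it. This gave 34 of the 35 genes, out of 19775 genes read in the same way. ADAMTS7 was not analysed here. The 34 genes have 89 probe sets among the 54613 tested, and 6 of them have 1 probe set only.

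All cells were of the line MDA-MB435S, which the labels call a metastatic melanoma, and were grown in DMEM with serum. WWOX cells carry the WW domain-containing oxidoreductase WWOX, WFPA cells carry WWOX with a mutated WW domain, and EV cells carry the empty vector. All of them were stable lines selected with G418 after lentiviral transfer, so that what is particular to a clone and the effect of its construct cannot be told apart. Each group has 3 Affymetrix U133 Plus 2.0 arrays of total RNA, and nothing in the sources says that these were separate cultures. The spread that enters the p-values is thus that between arrays, which may be technical. The labels conflict: the vector field gives WWOX protein for the arrays named EV and no protein for those named WWOX. The names were used. WWOX itself, at its brightest probe set, averaged 10.66 ± 0.276 in WWOX cells, 10.24 ± 0.118 in WFPA cells and 8.94 ± 0.284 in EV cells (log2 intensity, SD, n = 3 each), which runs the way of the names. The next brightest of its 5 probe sets did not follow this order, at 8.87 in WWOX cells, 8.38 in WFPA cells and 9.11 in EV cells, with WFPA cells at -0.73 against EV cells (limma adjusted p = 0.0433). A dimmer one did, at 8.18 in WWOX cells, 7.64 in WFPA cells and 4.49 in EV cells.

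ADAM proteins sit in the membrane and, where their catalytic site works, cut the outer part off neighbouring proteins such as growth factor precursors, Notch receptors and adhesion molecules. ADAMTS proteases are secreted, bind the extracellular matrix through thrombospondin repeats and cut procollagens and proteoglycans. The plasminogen activators turn plasminogen into plasmin, a broad protease that degrades fibrin and matrix, and PLAUR holds PLAU at the cell surface. In tumour cells these enzymes are studied for their part in invasion and in the release of growth factors.

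A change counted as called if it reached 2-fold and its limma p, adjusted by Benjamini-Hochberg, was below 0.05. SE is the standard error of a log2 change. Of the 34 proteases 5 were called in at least 1 of 4 comparisons: ADAMTS2, ADAMTS6, ADAMTS12, FAP and PLAUR. How many of all genes were called in at least 1 of the 4 was not counted. The 5 thus cannot be set beside the shares of single comparisons that follow. Against the mean of EV and WFPA cells, WWOX cells had 1 protease called higher, where 1.94% of all genes were called higher, and 2 called lower, where 2.06% of all genes were. Against EV cells alone it was again 1 higher and 2 lower, and the shares of all genes were 2.11% and 1.79%. Against WFPA cells 1 was called higher and 3 lower, with 2.01% and 2.72% of all genes. Between WFPA and EV cells 1 was called higher and 1 lower, with 1.54% and 0.693% of all genes. These comparisons share arrays, so their calls are not independent of each other. The share called in 1 direction thus ran from 2.94% (1 gene) to 8.82% (3 genes) of the 34. Counts this small describe single genes, which follow by family. With Bonferroni adjustment only the ADAMTS2 calls held, and at 4-fold only those of ADAMTS2 and that of ADAMTS6 in WWOX against EV cells.

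By the adjusted p alone, 11 of the 34 proteases passed in WWOX cells against the mean of EV and WFPA cells (32.4%, against 20.3% of all genes). It was 7 of 34 in WWOX against EV cells (20.6%, with 14.8% of all genes), 14 of 34 in WWOX against WFPA cells (41.2%, with 20.4%) and 5 of 34 in WFPA against EV cells (14.7%, with 8.62%). The median log2 change of the proteases in WWOX cells was 0.16 against the mean of EV and WFPA cells, where that of all genes was 0.04. Against EV cells these medians were 0.14 and 0.03, and against WFPA cells 0.15 and 0.07. In WFPA against EV cells the median was -0.01 for the proteases and -0.04 for all genes.

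**Figure D1:**
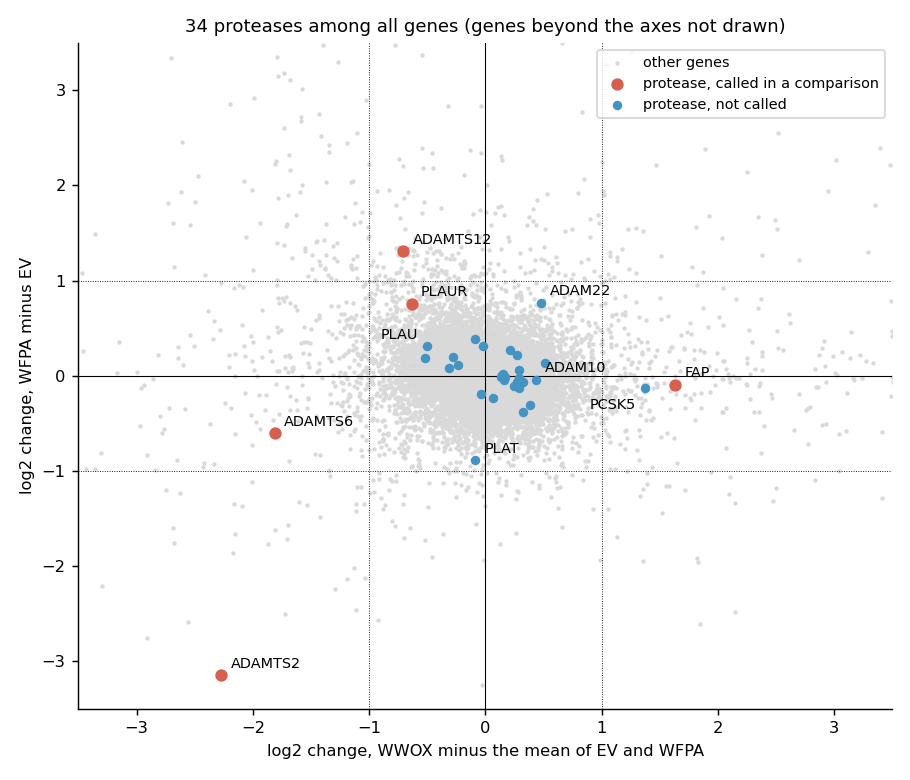
Log2 change of each gene in WWOX cells against the mean of EV and WFPA cells (x axis) and in WFPA against EV cells (y axis). Red points are the 5 called proteases, blue points the 29 that were not called and grey points other genes, and dotted lines mark 2-fold. ADAMTS2 lies far below the other proteases on the y axis, FAP lies to the right near 0 on the y axis, and most of the other proteases lie close to the centre.

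The secreted ADAMTS group held 3 of the 5 called genes. ADAMTS2 and ADAMTS6 were lower in WWOX than in EV cells, ADAMTS12 was higher in WFPA cells than in both other groups, and 9 of the 12 ADAMTS genes read were not called. All 3 called ADAMTS genes lie on chromosome 5 (GRCh38.p14): ADAMTS2 at chr5:179110853-179345461, ADAMTS6 at chr5:65148738-65481920 and ADAMTS12 at chr5:33523535-33891990. They are far apart on it. ADAM19 lies on chromosome 5 too and was not called. The 3 genes were picked by their calls, so the shared chromosome is a description and not a result.

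The stretch around the start of each gene was read from RefSeq promoter windows of GRCh38.p14, which run from 250 bases before to 50 bases after the gene's start. A window was found for 24 of the 34 proteases and for 4 of the 5 called ones. ADAMTS2 and ADAMTS6 are shown together because both were lower in WWOX than in EV cells. ADAMTS2 is at chr5:179345412-179345711 and ADAMTS6 at chr5:65481871-65482170, both on the minus strand, and the sequences run 5′ to 3′ in the direction of the gene. Capitals mark the motifs found, as listed after the sequences.
ADAMTS2: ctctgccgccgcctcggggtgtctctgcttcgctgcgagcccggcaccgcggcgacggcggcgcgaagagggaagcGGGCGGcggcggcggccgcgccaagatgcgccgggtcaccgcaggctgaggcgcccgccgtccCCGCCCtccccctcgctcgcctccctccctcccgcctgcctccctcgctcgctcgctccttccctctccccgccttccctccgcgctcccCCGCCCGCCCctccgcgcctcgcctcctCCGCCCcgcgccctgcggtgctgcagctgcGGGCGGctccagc
ADAMTS6: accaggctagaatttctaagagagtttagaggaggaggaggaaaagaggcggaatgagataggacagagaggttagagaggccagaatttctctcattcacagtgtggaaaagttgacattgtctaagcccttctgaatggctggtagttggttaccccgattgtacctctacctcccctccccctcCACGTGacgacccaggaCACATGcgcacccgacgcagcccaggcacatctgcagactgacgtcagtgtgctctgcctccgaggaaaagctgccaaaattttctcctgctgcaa
ADAMTS12 and PLAUR are shown because both were called lower in WWOX than in WFPA cells, with WFPA arrays above all others. Their windows are chr5:33891941-33892240 and chr19:43670120-43670419, also on the minus strand.
ADAMTS12: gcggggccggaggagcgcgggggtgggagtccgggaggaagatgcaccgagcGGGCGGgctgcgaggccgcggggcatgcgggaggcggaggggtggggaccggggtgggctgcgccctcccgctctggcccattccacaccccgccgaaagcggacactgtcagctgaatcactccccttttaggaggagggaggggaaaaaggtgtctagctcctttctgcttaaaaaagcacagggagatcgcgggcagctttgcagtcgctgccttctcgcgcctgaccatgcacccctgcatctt
PLAUR: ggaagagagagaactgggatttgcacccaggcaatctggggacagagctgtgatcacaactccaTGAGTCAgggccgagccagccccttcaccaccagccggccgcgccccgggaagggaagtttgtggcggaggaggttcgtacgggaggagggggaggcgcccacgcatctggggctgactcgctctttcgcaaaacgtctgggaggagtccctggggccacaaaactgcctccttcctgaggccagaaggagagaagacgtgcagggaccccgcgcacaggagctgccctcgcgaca

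In these windows 6 motifs were searched on both strands: the TATA box TATAAA, the AP-1 site TGACTCA, the GC box GGGCGG, the CCAAT box CCAAT, and the E-boxes CACGTG and CATGTG. Of all 35116 windows of this length, 11.5% hold the TATA box, 4.95% the AP-1 site, 45.0% the GC box, 34.6% the CCAAT box, 7.26% CACGTG and 11.1% CATGTG. ADAMTS2 and ADAMTS6 shared none of the 6 motifs. The ADAMTS2 window is 80.3% G and C, where the median of all windows is 58.7%, and holds 6 GC boxes, of which 2 overlap. That of ADAMTS6 is 52.0% G and C and holds CACGTG at -63 and CATGTG, on the opposite strand, at -46 from the start. The ADAMTS12 window (67.0% G and C) holds 1 GC box at -198, and the PLAUR window (64.0% G and C) holds 1 AP-1 site, read on the opposite strand, at -186. A match is a description of the letters and not a site shown to be bound.

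ADAMTS2 removes the amino-terminal propeptide of fibrillar procollagens. Its log2 intensity was 6.51, 5.70 and 5.96 in the 3 WWOX arrays, 6.63, 6.83 and 6.80 in the WFPA arrays, and 9.87, 10.01 and 9.82 in the EV arrays. The 3 groups did not overlap, and the gap lay between EV cells and both other groups. ADAMTS2 fell by 3.84 on the log2 scale in WWOX against EV cells (limma adjusted p = 2.76e-06, SE 0.184), which is 14.4-fold. In WFPA against EV cells it fell by 3.15 (limma adjusted p = 2.48e-05, SE 0.184), which is 8.88-fold. Between WWOX and WFPA cells the log2 difference was -0.69 (limma adjusted p = 0.0325, SE 0.184), under 2-fold. The change of -2.27 against the mean of EV and WFPA cells (limma adjusted p = 2.22e-05, SE 0.159) averages these unequal differences. A dimmer probe set of ADAMTS2 read 5.85 to 6.35 in WWOX cells, 5.80 to 6.12 in WFPA cells and 7.12 to 7.23 in EV cells, and was called lower in both against EV cells. The third probe set was not called. With the mean of the 3 probe sets, the change against the mean of EV and WFPA cells was -0.94, under 2-fold.

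ADAMTS6 is a secreted protease that has been linked in mice to heart development and to microfibrils of fibrillin. In WWOX cells it stood at 8.49, 8.26 and 9.36, in WFPA cells at 10.19, 10.25 and 10.19, and in EV cells at 10.86, 10.79 and 10.79. All WWOX arrays lay below all others and all EV arrays above all others, and the WWOX arrays spread the most, with replicate 3 nearest to WFPA cells. ADAMTS6 fell by 2.11 in WWOX against EV cells (limma adjusted p = 5.35e-04, SE 0.236) and by 1.51 against WFPA cells (limma adjusted p = 0.0028, SE 0.236). In WFPA against EV cells the difference was -0.60 (limma adjusted p = 0.201, SE 0.236), which did not pass. A second, dimmer probe set read 5.06 to 5.91 in WWOX cells, 6.63 to 7.11 in WFPA cells and 7.24 to 7.73 in EV cells, and was called in the same comparisons. The third, at 3.14 to 3.62 over all arrays, was not called. With the mean of the 3 probe sets, the change against WFPA cells was -0.94, under 2-fold.

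ADAMTS12, which cuts the cartilage protein COMP, had another pattern. It was at 5.03, 4.81 and 5.30 in WWOX cells, at 6.30, 6.63 and 6.29 in WFPA cells, and at 5.06, 5.24 and 4.99 in EV cells. Only the WFPA arrays stood apart, while WWOX and EV arrays overlapped. It fell by 1.36 in WWOX against WFPA cells (limma adjusted p = 3.54e-04, SE 0.147), and WFPA cells were 1.31 higher than EV cells (limma adjusted p = 0.0011, SE 0.147). The other ADAMTS12 probe set, at 4.98 to 5.68 over all arrays, was not called, and with the mean of both probe sets neither call held.

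**Figure D2:**
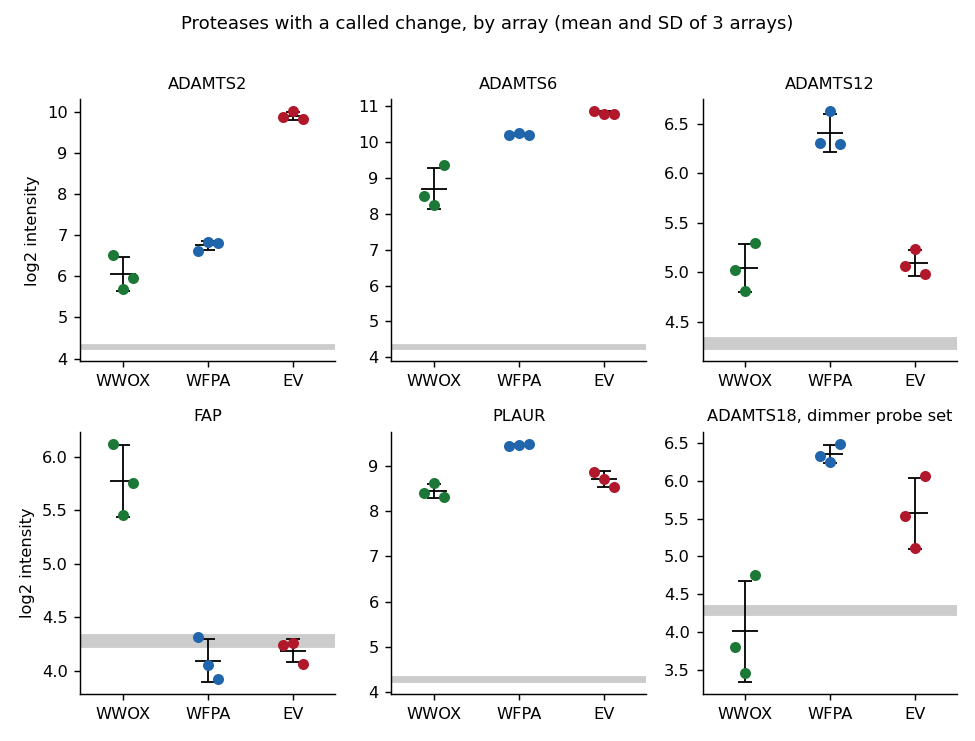
Log2 intensity (y axis) of the 5 called proteases and of the dimmer ADAMTS18 probe set in WWOX, WFPA and EV cells, with a point for every array and bars for the mean and SD of 3 arrays. The grey band is the range of the arrays' lower quartiles, 4.23 to 4.34. EV arrays stand above the rest in ADAMTS2 and ADAMTS6, WFPA arrays in ADAMTS12 and PLAUR, and WWOX arrays in FAP, where WFPA and EV arrays lie at or under the band.

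ADAMTS18, a secreted protease, was read differently by its 2 probe sets. Their means over all arrays were nearly the same, 5.32 and 5.31. The slightly brighter one, which stands for the gene, ran between 5.01 and 5.52 and was not called. The other read 3.80, 3.46 and 4.76 in WWOX cells, 6.33, 6.26 and 6.49 in WFPA cells, and 5.53, 5.12 and 6.06 in EV cells. All WWOX arrays lay below all others there, and all WFPA arrays above. It fell by 2.35 in WWOX against WFPA cells (limma adjusted p = 0.00145, SE 0.326) and by 1.56 against EV cells (limma adjusted p = 0.0149, SE 0.326). Its mean in WWOX cells, 4.01, was under the arrays' lower quartile, so the size of these changes is uncertain. Of the 89 probe sets of the proteases, 5 were called in either direction in WWOX cells against the mean of EV and WFPA cells, where 3.23% of all probe sets were. It was 6 against EV cells (3.29% of all), 6 against WFPA cells (3.98% of all) and 4 in WFPA against EV cells (1.73% of all).

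Of the ADAMTS proteases that cut proteoglycans, ADAMTS1 was read at 8.40, 8.39 and 8.19 in WWOX cells, 7.74, 7.80 and 8.10 in WFPA cells, and 7.82, 7.65 and 7.78 in EV cells. WWOX arrays were all above the others, by 0.51 against the mean of EV and WFPA cells (limma adjusted p = 0.00893, SE 0.101), which is 1.43-fold. At the dimmer ADAMTS1 probe set WWOX arrays, at 5.58 to 6.06, overlapped with WFPA arrays, at 5.20 to 5.83. EV arrays were at 5.35 to 5.53 there. ADAMTS4 was also higher in all WWOX arrays, at 5.12 to 5.36, against 4.78 to 5.03 in WFPA cells and 4.93 to 5.03 in EV cells. ADAMTS5, ADAMTS9 and ADAMTS15 did not pass the test in any comparison. ADAMTS5 lay between 3.18 and 3.89, under the lower quartile of the arrays in every group mean, as did ADAMTS3 at 2.59 to 3.91, a procollagen protease like ADAMTS2. ADAMTS10, and ADAMTS13, which cuts von Willebrand factor, stayed between 5.97 and 7.05 and did not pass.

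None of the 9 membrane-bound ADAM proteases was called by limma in any comparison. At an unadjusted p under 0.05 there were 5 of 9 in WWOX cells against the mean of EV and WFPA cells, 1 against EV cells, 6 against WFPA cells and 3 in WFPA against EV cells. Of all genes, 35.3%, 29.2%, 35.9% and 22.8% had such a p in these comparisons. ADAM10, ADAM17 and ADAM9 gave the highest readings among them, and these readings do not rank the genes, since probe sets differ in how they bind. ADAM10, which releases Notch and cadherin ectodomains, stood at 12.79, 12.80 and 12.77 in WWOX cells, 12.28, 12.41 and 12.31 in WFPA cells, and 12.41, 12.36 and 12.35 in EV cells. The WWOX arrays did not overlap with the others. The difference was 0.44 against the mean of EV and WFPA cells (limma adjusted p = 0.0025, SE 0.067), which is 1.35-fold. At the dimmer ADAM10 probe sets the WWOX arrays overlapped with the others.

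ADAM17, the enzyme that releases TNF and ligands of the EGF receptor, was highest in WFPA cells. It read 11.03, 11.04 and 10.78 in WWOX cells, 11.26, 11.20 and 11.25 in WFPA cells, and 10.83, 10.86 and 10.87 in EV cells. WFPA cells were 0.38 above EV cells (limma adjusted p = 0.0428, SE 0.0932), or 1.30-fold. The dimmer ADAM17 probe sets also had their highest mean in WFPA cells, but WFPA arrays overlapped with the others there. At their brightest probe sets ADAM9, a widely expressed sheddase, and ADAM15, whose disintegrin domain carries an integrin-binding motif, were higher in all WFPA arrays than in all others. ADAM15 passed the adjusted p against WFPA cells, at -0.38 in WWOX cells, and ADAM9 passed in no comparison at its brightest probe set. The dimmer ADAM9 probe sets did not have WFPA arrays above all others. The dimmest had all WWOX arrays below the rest, at 4.48 to 4.75 against 4.93 to 5.47 in WFPA and EV arrays. The other averaged 7.49 in WWOX cells, 7.50 in WFPA cells and 7.60 in EV cells. ADAM19, which processes neuregulins, was lowest in WFPA cells, at 9.66 to 9.84 in WWOX cells, 9.08 to 9.37 in WFPA cells and 9.54 to 9.72 in EV cells, and WWOX cells were 0.51 above WFPA cells (limma adjusted p = 0.00963). ADAM33 was 0.30 higher in WWOX than in WFPA cells (limma adjusted p = 0.0493).

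ADAM8 and ADAM28, known from white blood cells, and ADAM12, which can release HBEGF, did not pass the test. The brightest probe set of ADAM12 read 5.14, 4.32 and 5.65 in WWOX cells, 5.46, 5.68 and 5.81 in WFPA cells, and 5.46 in all 3 EV arrays. Another of its 5 probe sets was called, at 5.46 to 5.93 in WFPA cells and 4.58 to 4.99 in EV cells, a log2 change of 1.00 (limma adjusted p = 0.0214). It was at 4.81 to 5.50 in WWOX cells.

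ADAM22 and ADAM23 lack a working catalytic site and act as surface receptors of the neuronal LGI proteins. ADAM22 read 6.01, 6.71 and 6.02 in WWOX cells, 6.51, 5.93 and 6.01 in WFPA cells, and 5.51, 5.49 and 5.15 in EV cells. EV arrays lay below all others at this probe set, and at none of the dimmer ADAM22 probe sets. WWOX cells were 0.86 above EV cells (limma adjusted p = 0.0379, SE 0.224), and WFPA cells 0.77 above EV cells (limma adjusted p = 0.0831, SE 0.224). ADAM23 was under the lower quartile of the arrays in every group mean.

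**Figure D3:**
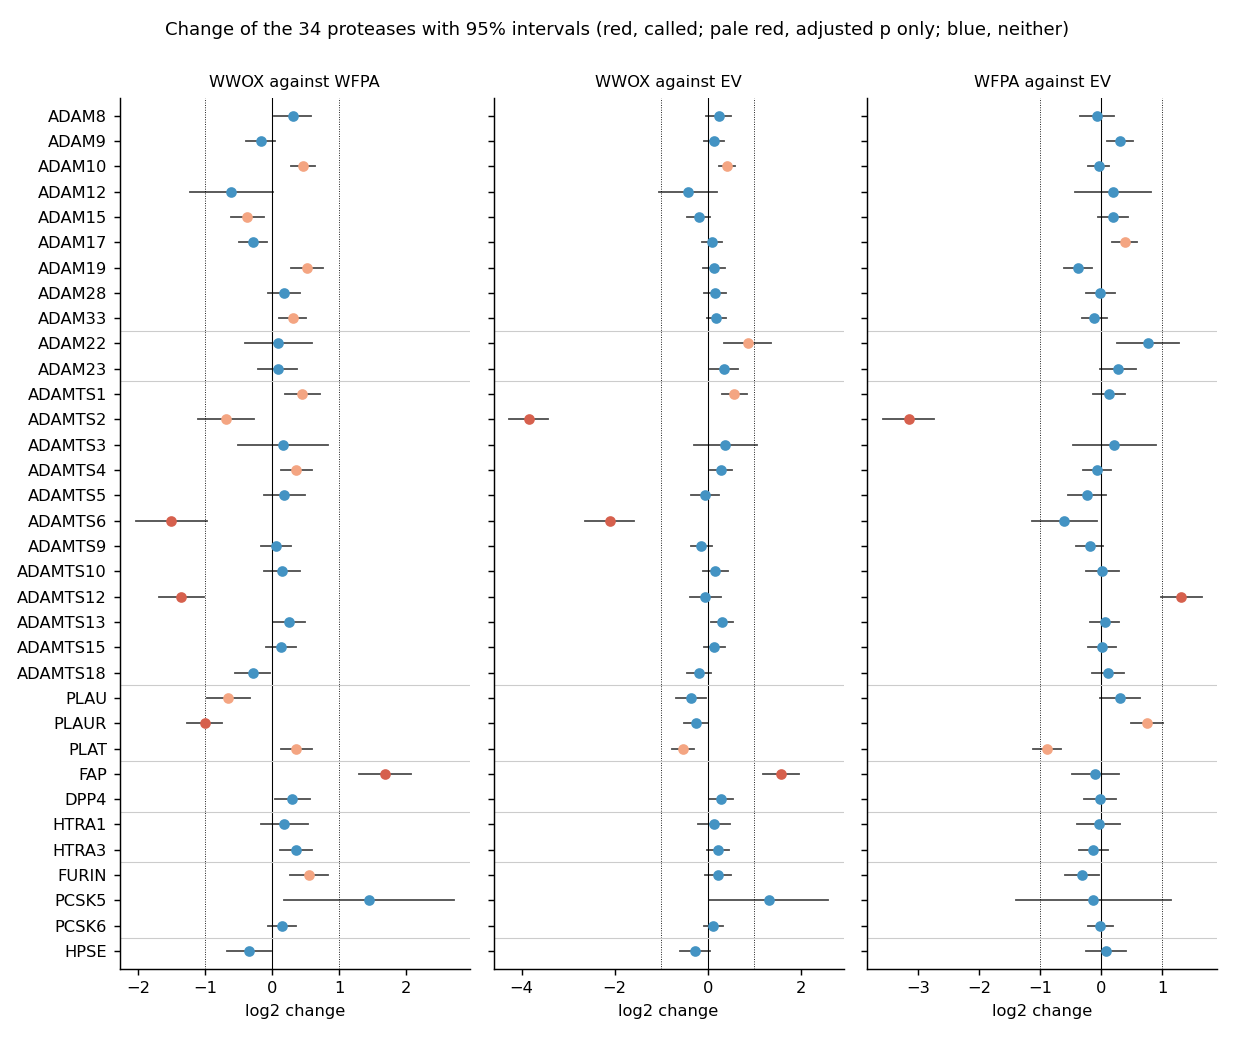
Log2 change with its 95% interval (x axis) for each of the 34 proteases (rows, grouped by family) in WWOX against WFPA, WWOX against EV and WFPA against EV cells. Red marks a call, pale red an adjusted p under 0.05 at less than 2-fold and blue neither, and dotted lines mark 2-fold. Most intervals lie within 2-fold, and that of PCSK5 is the widest in all 3 panels.

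In the plasminogen system, PLAUR was called between WWOX and WFPA cells, and PLAU and PLAT were not called. PLAUR lies at chr19:43646095-43670169. It stood at 8.40, 8.62 and 8.30 in WWOX cells, 9.43, 9.45 and 9.48 in WFPA cells, and 8.86, 8.71 and 8.52 in EV cells. WFPA arrays were above all others, and WWOX and EV arrays overlapped. PLAUR fell by 1.01 in WWOX against WFPA cells (limma adjusted p = 5.05e-04, SE 0.116), which is 2.02-fold. In WFPA against EV cells it was 0.76 higher (limma adjusted p = 0.00552, SE 0.116), or 1.69-fold. A second PLAUR probe set read 7.81 to 8.26 in WWOX cells, 9.03 to 9.07 in WFPA cells and 8.16 to 8.49 in EV cells, just short of 2-fold in WWOX against WFPA cells (-0.99, limma adjusted p = 0.0011). The third averaged 7.04 in WWOX cells, 7.33 in WFPA cells and 6.85 in EV cells, where WWOX against WFPA cells gave -0.29 (limma adjusted p = 0.168). The call of PLAUR sits at the 2-fold limit: with the mean of the 3 probe sets the change was -0.76, without WWOX replicate 1 the change was -0.99 and without WWOX replicate 3 it was -0.94.

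PLAU, the urokinase that PLAUR binds, had its group means in the same order. It read 6.37, 6.48 and 6.60 in WWOX cells, 7.47, 6.95 and 7.01 in WFPA cells, and 6.94, 6.74 and 6.83 in EV cells. The 3 groups did not overlap, but the lowest WFPA array (6.95) and the highest EV array (6.94) nearly met. All differences were under 2-fold. WWOX cells were at -0.66 against WFPA cells (limma adjusted p = 0.0138, SE 0.143) and at -0.35 against EV cells (limma adjusted p = 0.163, SE 0.143). WFPA cells were 0.31 above EV cells (limma adjusted p = 0.290, SE 0.143), which did not pass. At the dimmer PLAU probe set the groups overlapped, with means of 5.05 in WWOX cells, 5.22 in WFPA cells and 5.17 in EV cells. PLAT, the tissue plasminogen activator, had another order. Its level was 8.16, 8.17 and 8.37 in WWOX cells, 7.73, 7.96 and 7.93 in WFPA cells, and 8.84, 8.75 and 8.71 in EV cells, again with no overlap. WFPA cells were at -0.89 against EV cells (limma adjusted p = 0.00118, SE 0.101), or 1.85-fold lower, and WWOX cells at -0.53 against EV cells (limma adjusted p = 0.00951, SE 0.101).

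FAP was the only one of the 34 proteases called higher in WWOX cells, and it was so against both other groups. FAP is a surface serine peptidase known from fibroblasts of tumours and wounds, and lies at chr2:162170684-162243445. It has 1 probe set. Its level was 6.12, 5.45 and 5.75 in WWOX cells, 4.31, 4.05 and 3.92 in WFPA cells, and 4.24, 4.26 and 4.07 in EV cells. WWOX arrays were all above the others, and the means of WFPA and EV cells were below the arrays' lower quartile. It was 1.68 higher than in WFPA cells (limma adjusted p = 2.5e-04, SE 0.171) and 1.59 higher than in EV cells (limma adjusted p = 4.29e-04, SE 0.171). Since no background level is given, the size of this change is uncertain. DPP4, its neighbour on chromosome 2 and a related dipeptidyl peptidase, read 4.50 to 4.61 in WWOX cells, 4.16 to 4.46 in WFPA cells and 4.16 to 4.44 in EV cells. It did not pass the test in any comparison.

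Of the 10 fibroblast markers read, LUM and FAP were called higher in WWOX cells than in both other groups, and COL1A2 was called higher against EV cells and against the mean of both. Of all genes, 2.11% were called higher against EV cells, 2.01% against WFPA cells and 1.94% against the mean of both. LUM averaged 6.41 in WWOX cells, 2.07 in WFPA cells and 2.03 in EV cells. The mean over the list ran from 5.91 to 6.01 in WWOX arrays, 5.22 to 5.31 in WFPA arrays and 5.06 to 5.22 in EV arrays. This mean includes FAP and LUM, and the median change of the list in WWOX cells was 0.13 against WFPA cells and 0.09 against EV cells. PDGFRA, at 3.65 to 4.11 on all arrays, was the 1 marker of the 10 with a WWOX mean under the arrays' lower quartile. In WFPA cells and in EV cells 3 of the 10 were under it. In bulk RNA, a change in the number of cells of a type and one in RNA per cell cannot be told apart, and the part of other cells in the FAP reading was not tested.

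The proprotein convertases remove the propeptides of ADAM and ADAMTS proteases, among other proteins. FURIN read 10.80, 10.87 and 10.45 in WWOX cells, 10.18, 10.09 and 10.23 in WFPA cells, and 10.57, 10.33 and 10.53 in EV cells. WFPA arrays lay below all others. WWOX cells were 0.54 above WFPA cells (limma adjusted p = 0.0189, SE 0.126), or 1.45-fold. PCSK6 stayed between 6.42 and 6.78 and did not pass.

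PCSK5 had the largest change that was not called. It stood at 4.48, 6.04 and 7.33 in WWOX cells, 4.59, 4.64 and 4.32 in WFPA cells, and 4.84, 4.68 and 4.40 in EV cells. WWOX replicate 1 lay among the WFPA and EV arrays, and the other WWOX arrays lay above all of these. The mean difference was 1.37 against the mean of EV and WFPA cells (95% interval 0.27 to 2.48, limma adjusted p = 0.0899, SE 0.487). Without WWOX replicate 1 it was 2.11 (limma adjusted p = 0.00257), and without WWOX replicate 3 it was 0.69 (limma adjusted p = 0.257). The dimmer PCSK5 probe sets were not called. The brighter of these averaged 4.54 in WWOX cells, 4.37 in WFPA cells and 4.47 in EV cells. The other averaged 3.49, 3.06 and 3.00 in that order, all under the arrays' lower quartile.

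**Figure D4:**
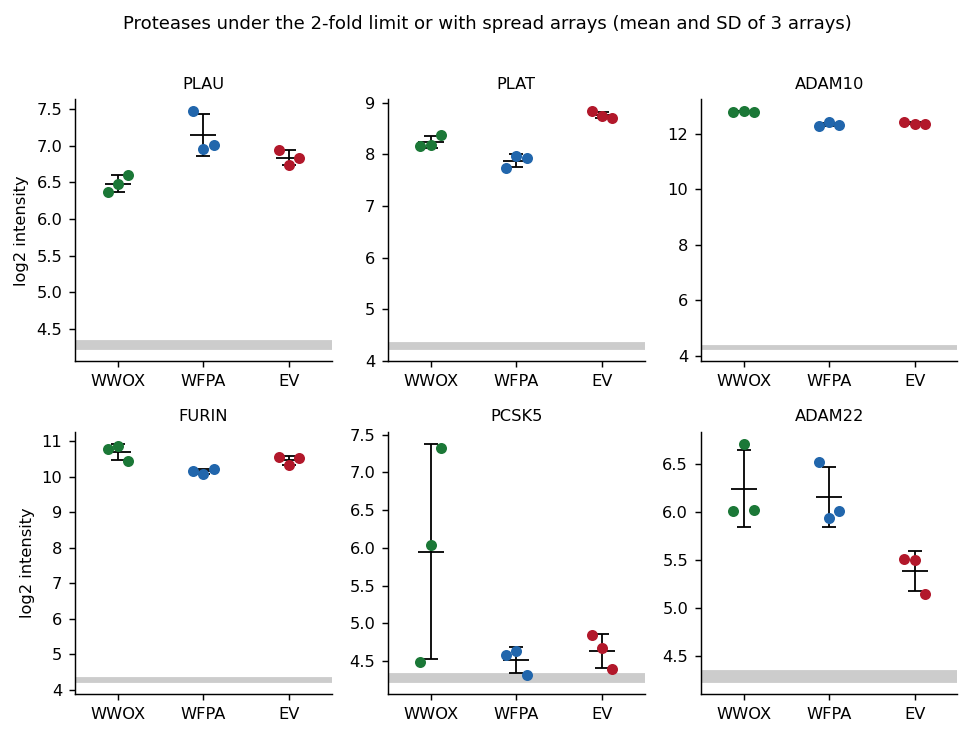
Log2 intensity (y axis) of PLAU, PLAT, ADAM10, FURIN, PCSK5 and ADAM22 in WWOX, WFPA and EV cells, with a point for every array and bars for the mean and SD of 3 arrays. PLAU and PLAT keep the 3 groups apart in opposite orders of WFPA and EV cells, which nearly meet in PLAU. ADAM10 is higher in WWOX arrays, and the 3 WWOX arrays of PCSK5 spread from 4.48 to 7.33.

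HTRA1 was under the lower quartile of the arrays in every group mean, and HTRA3 averaged 7.88 ± 0.153 in WWOX cells, 7.53 ± 0.020 in WFPA cells and 7.66 ± 0.138 in EV cells (SD, n = 3 each). HPSE stood at 7.69 to 8.21 in WWOX cells, 8.09 to 8.49 in WFPA cells and 8.17 to 8.23 in EV cells. None of these 3 passed the test in any comparison at the probe set that stands for it. A dimmer HPSE probe set had all WFPA arrays above the others and was not called. It read 7.31 to 7.40 in WWOX cells, 7.89 to 8.25 in WFPA cells and 7.16 to 7.47 in EV cells. Over all 29 proteases that were not called, the log2 change in WWOX cells against the mean of EV and WFPA cells ran from -0.52 for ADAM12 to 1.37 for PCSK5, and 25 of them lay within 0.5 of 0. In WFPA against EV cells it ran from -0.89 for PLAT to 0.77 for ADAM22.

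Without a test, and at the probe set that stands for each gene, 10 of the 34 proteases had all 3 WWOX arrays above or all below the 6 other arrays. Of all genes, 21.3% had. FAP, DPP4, ADAM8, ADAM10, ADAM33, ADAMTS1 and ADAMTS4 were above and ADAMTS2, ADAMTS6 and PLAU below. At the dimmer probe sets of DPP4, ADAM8, ADAM10, ADAM33, ADAMTS1, ADAMTS2 and PLAU the WWOX arrays overlapped with other arrays. For WFPA arrays it was 9 of 34, where 18.6% of all genes had it, with ADAM9, ADAM15, ADAM17, ADAMTS12, PLAU and PLAUR above and ADAM19, FURIN and PLAT below. For EV arrays it was 4 of 34, where 11.6% of all genes had it: ADAMTS2, ADAMTS6 and PLAT above and ADAM22 below.

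Other genes of these pathways were counted in 6 lists. Beside each count of calls in WWOX cells against the mean of EV and WFPA cells stand the 1.94% of all genes called higher there and the 2.06% called lower, and counts this small say nothing particular to a list. None of 20 other ADAM and ADAMTS genes was called by limma in any comparison, and 5 of the 20 had an unadjusted p under 0.05 in WWOX cells against the mean of EV and WFPA cells, where 35.3% of all genes had. Of 19 partners of the plasminogen system, 3 were called higher and 1 lower in WWOX cells against the mean of EV and WFPA cells (list median 0.11), and 0 in WFPA against EV cells, where limma gave 3 of the 19, and 22.8% of all genes, an unadjusted p under 0.05. SERPINE2, an inhibitor of thrombin and of plasminogen activators, rose by 2.09 (limma adjusted p = 3.18e-07). SERPINI1, the neuronal inhibitor of PLAT, rose by 1.31 (limma adjusted p = 0.0184). SERPINI1 was called against WFPA cells but not against EV cells, whose arrays ran from 4.41 to 5.84. The receptor VLDLR, which takes up complexes of protease and inhibitor, fell by 1.79 (limma adjusted p = 2.04e-05). Its mean in WWOX cells was 4.21, which is under the arrays' lower quartile.

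Of 15 regulators of ADAM10 and ADAM17, 2 were called higher and 1 lower in WWOX cells against the mean of EV and WFPA cells, with a list median of 0.13. TIMP3, an inhibitor of ADAM17 and of ADAMTS4 and ADAMTS5, rose by 2.51 (limma adjusted p = 2.91e-07). WFPA cells, too, had more of it than EV cells, by 1.55 (limma adjusted p = 3.84e-05). Among the tetraspanins that guide ADAM10 to the surface, TSPAN33 rose by 1.71 (limma adjusted p = 2.2e-06) and TSPAN5 fell by 2.24 (limma adjusted p = 6.43e-05). Of 31 ligands and receptors that ADAM proteases shed, 2 were called and both were lower, with a list median of 0.08. These were the EGF receptor ligands HBEGF, which fell by 1.68 (limma adjusted p = 3.26e-05), and TGFA, which fell by 1.35 (limma adjusted p = 9.46e-05).

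Of 21 substrates and binding partners of ADAMTS proteases, 2 were called higher and 3 lower in WWOX cells against the mean of EV and WFPA cells, with a list median of 0.08. The proteoglycan LUM rose by 4.36 (limma adjusted p = 7.86e-08), the matrix protein RELN fell by 2.67 (limma adjusted p = 4.16e-06), and the link protein HAPLN1 fell by 2.06 (limma adjusted p = 5.7e-06). For HAPLN1 this rests on WFPA cells, against which WWOX cells were at -4.60 (limma adjusted p = 2.58e-07), while against EV cells they were at 0.47 (limma adjusted p = 0.0533). It was 5.07 higher in WFPA than in EV cells (limma adjusted p = 3.02e-07). LUM lay under the arrays' lower quartile in WFPA and EV cells, so the size of its change is uncertain. Among 20 other convertases and serine proteases, PRSS12 alone was called, 2.04 higher in WWOX cells (limma adjusted p = 5.32e-05), and the list median was 0.20. PRSS12 read 5.35 in WWOX cells, against 3.29 in WFPA cells and 3.33 in EV cells, both under the lower quartile, and the size of this change is likewise uncertain.

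Correlations over all probe sets were 0.987 to 0.993 among WWOX arrays, 0.996 among WFPA arrays and 0.994 to 0.996 among EV arrays. Between groups they were 0.975 to 0.983 for WWOX and WFPA, 0.977 to 0.984 for WWOX and EV, and 0.988 to 0.989 for WFPA and EV arrays. The lowest value among WWOX arrays was thus below those between WFPA and EV arrays. The pooled SD of the proteases was 0.362 in WWOX cells, 0.145 in WFPA cells and 0.117 in EV cells, and over all genes 0.245, 0.156 and 0.177 in that order. Without PCSK5, that of the proteases in WWOX cells was 0.271. The label of the line was checked by 10 melanocytic markers, which were uneven. MITF at 11.33 to 13.60 and GPR143 at 11.20 to 11.59 were bright on all arrays, while MLANA at 4.09 to 4.83, TYR at 5.32 to 6.04, PMEL at 5.63 to 6.22, SLC45A2 at 4.68 to 5.22 and TYRP1 at 2.03 to 2.73 were near or under the arrays' medians. SOX10 averaged 10.55 in WWOX cells, 5.33 in WFPA cells and 4.89 in EV cells. Of the 10 markers, 4 were called higher in WWOX cells against both other groups. Of all genes, 2.11% were called higher against EV cells and 2.01% against WFPA cells. The mean over the list was 8.02 to 8.17 in WWOX arrays, 6.40 to 6.53 in WFPA arrays and 6.36 to 6.39 in EV arrays. Whether this difference has a part in the protease levels was not tested.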

How the data were processed

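RNA of 9 samples was read on Affymetrix U133 Plus 2.0 arrays, 3 each of WWOX, WFPA and EV cells. Arrays were processed by the authors with Partek Genomics Suite, who deposited normalized log2 intensities of 54675 probe sets. The background and normalization methods are not given in the sources used here, and no background level is given. No further normalization was applied. The 62 array controls were left out. Of 54613 probe sets tested, 41091 are annotated to 1 gene, 1801 to several and 11721 to none.

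A linear model with 1 mean per group was fitted to all probe sets in limma 3.58.1 under R 4.3.3, with 6 residual and 3.04 prior degrees of freedom, and p-values were adjusted by Benjamini-Hochberg over all probe sets. A call needs an adjusted p under 0.05 and at least 2-fold. The 4 contrasts were WWOX minus the average of WFPA and EV, WWOX minus EV, WWOX minus WFPA, and WFPA minus EV. SE comes from limma and SD from 3 arrays, and precision is limited by the small number of arrays. The script was tested on simulated data. Promoter windows and gene positions came from RefSeq tables of GRCh38.p14.

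The genes and lists were chosen with earlier results of these data known. Proteases called in at least 1 comparison are given by array, the others by range or where their role called for it, and in each list no more than 3 called genes, those that changed most. The ADAMTS18, ADAMTS1, ADAM12, HPSE, ADAM9, ADAM17, PCSK5, PLAU, ADAM10, ADAM22, ADAM8, ADAM33 and DPP4 probe sets beside the brightest were named after their values were seen. Alternatives were Bonferroni adjustment, other fold limits, a robust prior, limma-trend, a linear model without moderation, quantile normalization, median centring, 2 filters that drop dim probe sets, other choices of probe set, leaving out each array, blocking on replicate number, and fitting only the groups compared. Figures were drawn with Python 3.11.15 and matplotlib 3.10.9.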

Additional observations from a re-analysis of the deposited data

How the results depend on the processing

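The counts of called proteases were 3 in WWOX cells against the mean of EV and WFPA cells, 3 against EV cells, 4 against WFPA cells and 2 in WFPA against EV cells. In that order they were 1, 1, 0 and 1 with Bonferroni adjustment, where only the ADAMTS2 calls held, and 11, 7, 14 and 5 with no fold limit. At 4-fold they were 1, 0 and 1 in the comparisons other than WWOX against EV. With the mean of all probe sets of a gene, 2 were called in WWOX against WFPA cells and 1 in WFPA against EV cells. With each array left out in turn the counts ran from 3 to 4, 3 to 4, 3 to 4 and 2 to 2. Of 91 counts under 23 alternatives 78 stayed within 1.5 times and 13 did not, and of 270 values of called proteases 245 kept their call, 25 lost it and 0 turned in direction. PLAUR lost its call with quantile normalization, at -0.93. ADAMTS6 was at -0.94 in WWOX against WFPA cells with the mean of its probe sets. A filter at the median of all values left FAP untested. Why these calls were lost was not tested, beyond the stricter limits and the added probe sets themselves.

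Samples of the same number did not deviate together (correlations from -0.05 to 0.03), and a replicate block gave 3, 3, 4 and 2 calls. Signal limits the lowest readings: 4 proteases lay under the arrays' lower quartile in every group mean.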

Other observations

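Many dim readings were the same to 5 decimals on several arrays. This was so for 40.6% of all probe sets, 67.2% of the dimmest 13654 by mean and 13.6% of the brightest 13653. Among the 34 proteases it was 15, or 44.1%. ADAMTS5 had 1 value, 3.60, on 6 of 9 arrays, and ADAM12 had 5.46 on all 3 EV arrays and on 1 WFPA array, so that its SD in EV cells was 0.000. Among the 5 called proteases it was 1. An SD of such a gene is not a measure of the spread between cultures.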
